A study of Mus musculus with 10 samples.

Results

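Regulatory T (Treg) cells of 2 genotypes were compared for 5 variable segments of the T cell receptor alpha locus: Trav9d-3, Trav12-2, Trav7-4, Trav14d-3-dv8 and Trav3-4. They are all the Trav symbols that the array's annotation gives alone to a probe set, and were taken with every such probe set, 18 in all, out of 23521 probe sets and 22180 genes with 1 symbol. They were selected on measured values of these arrays, with the log2 difference between the genotypes known, so the members' own levels and differences are given as a description, with no p-value. The labels describe the cells as CD4+ YFP+ and as sorted from spleen and pLN of chimeras. The 5 WT arrays hold Treg cells of WT chimeras. The 5 Fntb KO arrays hold Treg cells of Foxp3CreFntbfl/fl chimeras, in which a Cre under the Treg lineage gene Foxp3 acts on floxed Fntb, the beta subunit of protein farnesyltransferase. The labels give neither the age nor the strain of the mice, and the host and donor cells of the chimeras are not described there. They do not say that the arrays of a group come from separate animals, so any spread may be technical.

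The T cell receptor alpha chain is assembled in the thymus, where a variable (V) segment of the locus is joined to a J segment and spliced to the constant region. The V segment supplies much of the surface that meets peptide and MHC, and a T cell usually uses a single productive alpha rearrangement. In a sorted population, the signal of a probe set that reads only its segment would therefore sum over the clones that use it. Such bulk arrays cannot tell fewer cells that use a segment from less receptor RNA per cell.

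The Trav locus of the mouse contains duplicated blocks, whose copies carry d or n in their names. RefSeq lists, in assembly GRCm38.p6, 130 Trav segments of 23 families on chromosome 14, 40 of them d copies, 34 of them n copies, and 16 of the 130 pseudogenes. Counted from the Trav1 end, Trav9d-3 stood at position 31, between Trav12d-2 and Trav5d-3. Trav14d-3-dv8, whose name marks a segment that can also serve the delta chain, stood at position 47, between Trav13d-4 and Trav15d-3. Trav7-4 was at position 88, between Trav6-4 and Trav8-1, and Trav12-2 was at position 104, between Trav5-2 and Trav12-3. Nearest to the constant region lay Trav3-4, at position 121 between Trav15-3 and Trav12-4. The family of Trav9d-3 has 11 listed segments, that of Trav12-2 has 10, that of Trav7-4 has 14, that of Trav14d-3-dv8 has 9 and that of Trav3-4 has 8.

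Those copies bear on what a probe set reads. The annotation gave the symbol Trav12-2 to 6 probe sets, Trav9d-3 to 5, Trav7-4 to 3, Trav14d-3-dv8 to 3 and Trav3-4 to 1. For Trav12-2, probe sets 17299849 and 17299926 held the same value on every array, and so did 17299857 and 17299934. Each such pair is counted once here, which leaves 16 probe sets. The other probe sets of a symbol differed from each other. Whether each reads the named segment, a near-identical copy or other sequence of the locus was not examined. Levels of different probe sets are not compared, since each probe set responds on its own scale.

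The labels held for the targeted gene. Fntb was lower in every Fntb KO array, with a log2 level of 6.12 ± 0.16 in the WT and 5.47 ± 0.12 in the Fntb KO group (SD, n = 5 each; adjusted p = 0.00472, exact two-sided permutation p = 0.00794, the smallest that 5 against 5 arrays can give). Foxp3 lay at 10.67 ± 0.03 in WT against 10.53 ± 0.05 in Fntb KO, with every Fntb KO array below every WT array (exact two-sided permutation p = 0.00794), but it did not pass over all probe sets (adjusted p = 0.598). Array medians lay between 4.09 and 4.25, the 3 lowest being those of WT 2, Fntb KO 1 and Fntb KO 2, so the members' differences are also given without them. The 1108 olfactory receptor probe sets, which T cells are not known to use, had a median of 2.51 and a 95th percentile of 4.19 on the log2 scale, which serves as a guide to dim signals.

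Trav3-4 had by far the widest gap between the genotypes among the 16 probe sets. Its probe set 17300189 read 7.18, 7.21, 6.35, 7.10 and 7.22 (log2) on WT arrays 1 to 5. On Fntb KO arrays 1 to 5 it read 3.90, 3.78, 4.43, 4.89 and 5.46. The groups did not overlap, and the highest Fntb KO array lay below the lowest WT array, WT 3. The mean was 7.02 ± 0.37 in WT against 4.49 ± 0.70 in Fntb KO (SD, n = 5 each), and the difference was -2.52 (SE 0.282), 5.74-fold lower. Here and below, the SE is that of limma's fit, which draws each probe set's variance toward that of all probe sets. It therefore does not follow from the printed SDs alone. Fntb KO 1 and Fntb KO 2 lay below the guide of 4.19, so the fold may understate the gap. Those are also 2 of the 3 arrays with the lowest medians, and without those 3 arrays the difference was -2.04. Among all 23521 differences, that of Trav3-4 was number 3 from the lowest.

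Trav14d-3-dv8 gave different pictures in its 3 probe sets. Probe set 17299913 read 8.22, 8.75, 8.18, 8.35 and 8.40 on WT arrays 1 to 5. It read 7.80, 7.64, 7.28, 7.55 and 6.76 on Fntb KO arrays 1 to 5. Here too every Fntb KO array lay below every WT array, and Fntb KO 5 was the lowest of all. The mean was 8.38 ± 0.23 in WT against 7.41 ± 0.41 in Fntb KO (SD, n = 5 each), and the difference was -0.97 (SE 0.175), 1.96-fold lower, and -1.09 without the 3 low-median arrays. Probe set 17299893 of the same symbol read 7.30, 8.06, 7.68, 7.68 and 7.52 in WT and 7.46, 8.10, 7.81, 7.70 and 6.72 in Fntb KO. Its groups overlapped, with Fntb KO 5 alone below all WT arrays, and the difference was -0.09 (SE 0.215). The last one, 17300079, was near the guide to dim signals, at 4.33 ± 0.15 in WT against 4.17 ± 0.17 in Fntb KO (SD, n = 5 each), and the difference was -0.16 (SE 0.104).

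Trav12-2 was lower in Fntb KO in 1 of its 4 distinct probe sets without overlap. On WT arrays 1 to 5, probe set 17300032 read 7.64, 7.84, 7.41, 7.26 and 7.47. On Fntb KO arrays 1 to 5 it read 7.09, 7.19, 6.51, 6.76 and 6.02. Fntb KO 5 was again the lowest array, and Fntb KO 2 lay closest to the lowest WT array, WT 4. The difference was -0.81 (SE 0.193), or 1.75-fold lower, with 7.52 ± 0.22 in WT against 6.72 ± 0.47 in Fntb KO (SD, n = 5 each). It was -1.01 without the 3 low-median arrays and -0.63 without Fntb KO 5.

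The other Trav12-2 probe sets had smaller differences and overlapping groups. Probe set 17299849, one of an identical pair, was 8.78 ± 0.18 in WT against 8.43 ± 0.29 in Fntb KO (SD, n = 5 each), and the difference was -0.36 (SE 0.136), and 4 of 5 Fntb KO arrays lay below the lowest WT array. Of the second identical pair, 17299857 was 8.54 ± 0.10 in WT against 8.24 ± 0.29 in Fntb KO, a difference of -0.30 (SE 0.127), with 3 of 5 Fntb KO arrays below all WT arrays. In both, Fntb KO 5 was the lowest array, at 7.95 and 7.76. Probe set 17300173 differed by -0.03 (SE 0.143), at 10.16 ± 0.22 in WT against 10.13 ± 0.29 in Fntb KO, and there Fntb KO 5 was the highest array, at 10.55.

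Among the probe sets that the annotation names Trav9d-3, 17300247 showed the narrowest groups. That probe set read 11.98, 12.13, 12.01, 12.01 and 11.98 in WT. In Fntb KO it read 11.63, 11.67, 11.74, 11.68 and 11.63. The groups did not overlap although the means were close, at 12.02 ± 0.06 and 11.67 ± 0.05 (SD, n = 5 each), and the difference was -0.35 (SE 0.0727), 1.28-fold lower, and -0.31 without the 3 low-median arrays. The SD of this probe set was larger than that of 5.48% of all probe sets in WT and of 1.54% in Fntb KO, so it was among the steadiest on the array. Whether it reads Trav9d-3 or sequence shared by other alpha chains was not examined, so its difference is not assigned to that segment. The other 4 Trav9d-3 probe sets overlapped between the groups. Their differences were -0.07 (SE 0.113) for 17299842, -0.13 (SE 0.125) for 17299919, -0.01 (SE 0.136) for 17300054 and 0.05 (SE 0.147) for 17300181.

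Trav7-4 differed little between the genotypes, by -0.11 to 0.00 over its 3 probe sets. Probe set 17299796 was 9.26 ± 0.16 in WT against 9.26 ± 0.22 in Fntb KO (SD, n = 5 each), with a difference of 0.00 (SE 0.115). Probe set 17300155 was 8.54 ± 0.25 in WT against 8.54 ± 0.15 in Fntb KO. The dimmest, 17299991, ranged from 5.23 to 6.33 in WT and from 5.14 to 5.99 in Fntb KO, with a difference of -0.11 (SE 0.204). Its arrays differed more within each group than the means differed between the groups.

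**Figure D1:**
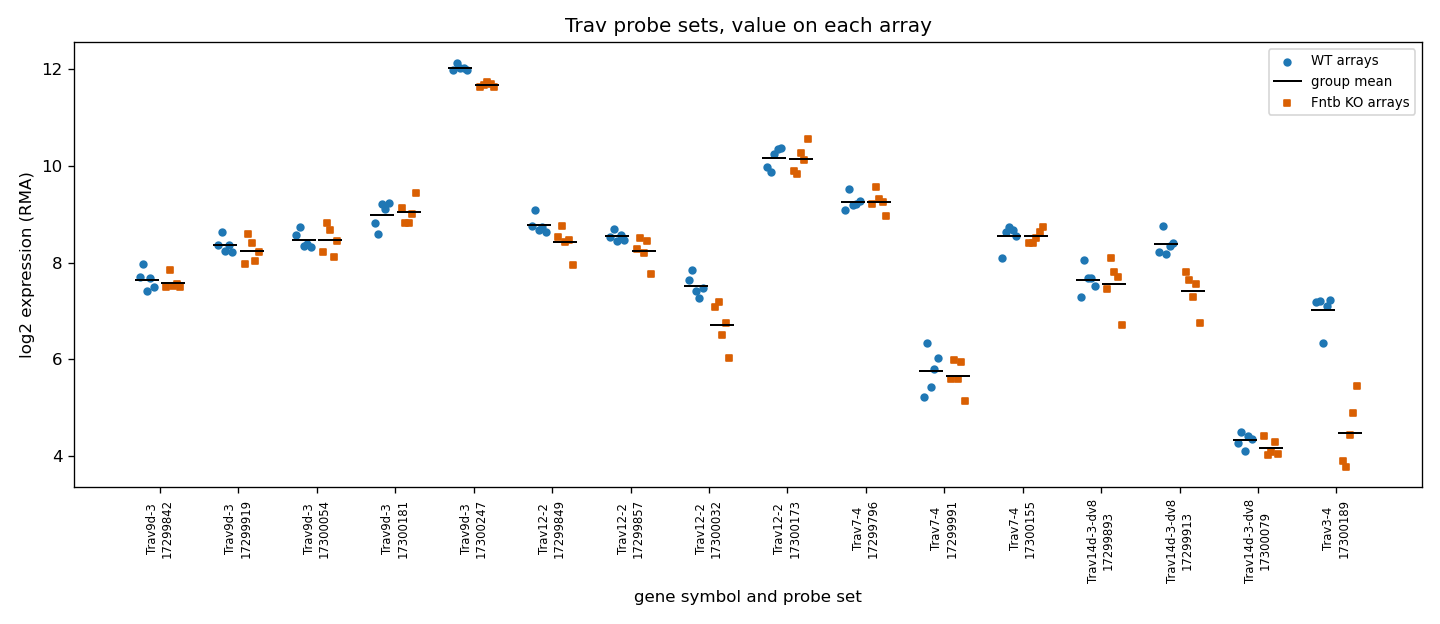
Log2 expression (RMA, y axis) of the 16 distinct Trav probe sets (x axis) on each of 5 WT arrays (circles) and 5 Fntb KO arrays (squares), with group means as lines. In Trav3-4 the Fntb KO arrays sit between 3.78 and 5.46, all below the WT arrays at 6.35 to 7.22, while the groups overlap in 12 probe sets. Levels of different probe sets are not comparable.

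Of the 16 distinct probe sets, 13 had a difference below 0, against 47.3% of all probe sets tested, and their median difference was -0.12, against 0.01 over all probe sets. The differences ran from -2.52 to 0.05. Groups did not overlap in 4 probe sets, all lower in Fntb KO, where 1.63% of all probe sets were lower without overlap and 1.04% were higher. In limma's fit over all probe sets, 3 of the 18 Trav probe sets (17300189 of Trav3-4, 17299913 of Trav14d-3-dv8 and 17300247 of Trav9d-3) passed as lower and 0 as higher, where 0.774% of all probe sets passed as lower and 0.306% as higher. Nothing is read from these counts or calls, because the members were chosen with this contrast known. Leaving out any single array ended the call of 17300247, at a difference of -0.37 to -0.32. Over the same fits the difference ran from -2.76 to -2.34 for 17300189 and from -1.07 to -0.81 for 17299913. With every probe set of the file tested, 1 Trav probe set passed.

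**Figure D2:**
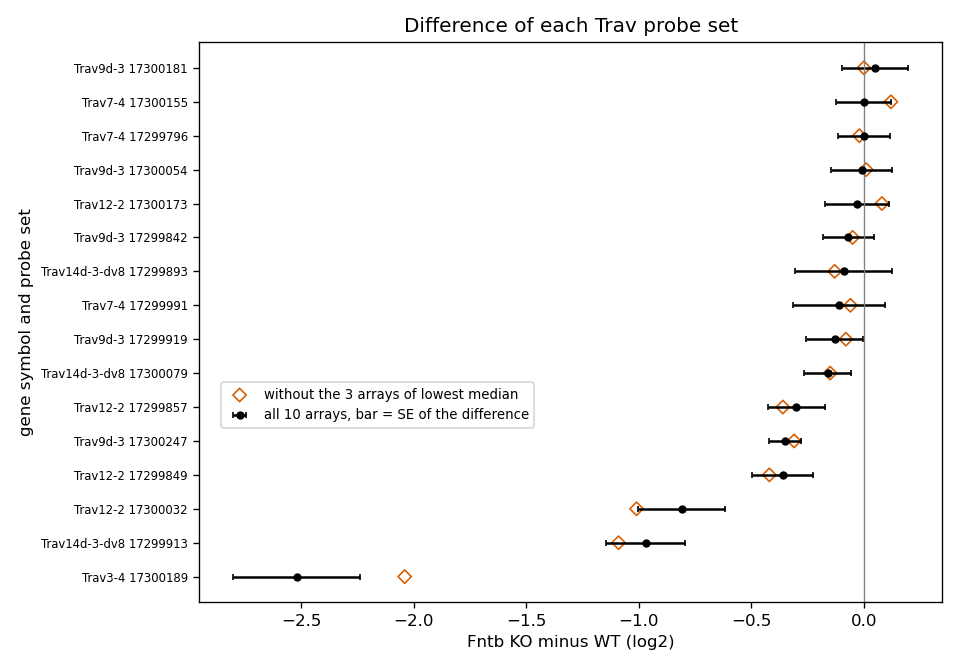
Difference between Fntb KO and WT (log2, x axis) of the 16 distinct Trav probe sets (y axis), with all 10 arrays (dots, bars are the SE of limma's fit, its variance drawn toward that of all probe sets) and without the 3 arrays of lowest median (diamonds). Trav3-4 lies at -2.52 with all arrays and -2.04 without those 3, and the other probe sets lie between -0.97 and 0.05 with all arrays.

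Within a genotype, the arrays differed more for most Trav probe sets than for most of the array. The SD over WT arrays exceeded the median SD of all probe sets in 14 of 16 Trav probe sets, and the SD over Fntb KO arrays in 12 of 16. The probe sets compared were not matched for level. Those of duplicated segments may also vary together, so the 16 are not independent counts. The median Trav SD was 0.22 in WT and 0.29 in Fntb KO, against 0.15 and 0.18 over all probe sets. Fntb KO arrays had the larger SD in 11 of 16 Trav probe sets (68.8%), and in 61.9% of all probe sets. Trav3-4 varied most in Fntb KO, where its SD of 0.70 was larger than that of 99.6% of probe sets. It was followed by 17299893 of Trav14d-3-dv8 (0.52 in Fntb KO against 0.28 in WT) and 17300032 of Trav12-2 (0.47 against 0.22). Trav7-4 went the other way in 2 of its 3 probe sets, with 0.34 in Fntb KO against 0.44 in WT for 17299991 and 0.15 against 0.25 for 17300155.

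**Figure D3:**
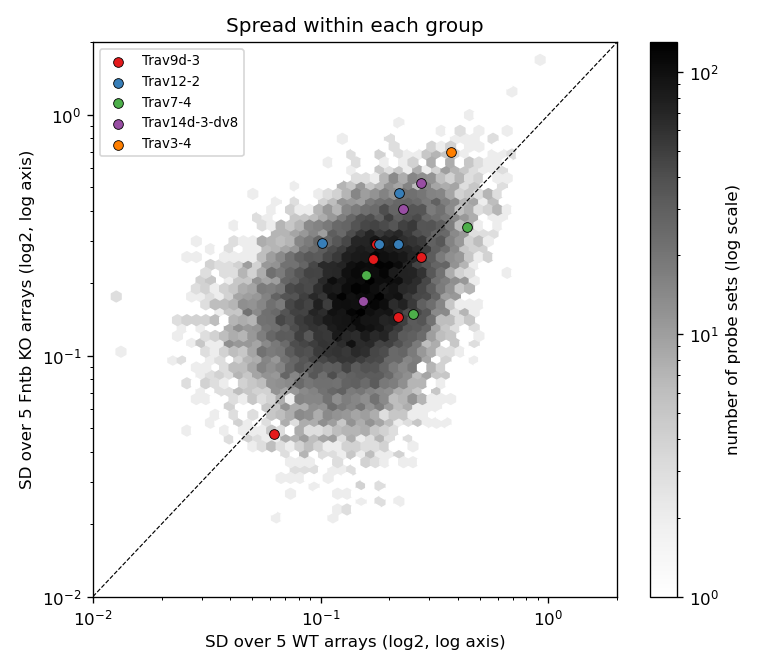
SD over the 5 WT arrays (x axis) against the SD over the 5 Fntb KO arrays (y axis), both log2 values on log axes, for all probe sets tested (grey shading, number of probe sets) and the 16 distinct Trav probe sets (coloured dots), with equality as a dashed line. Trav3-4 lies highest among the Trav probe sets, at 0.37 and 0.70, and 1 Trav9d-3 probe set lies at the narrow end, at 0.06 and 0.05.

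Single arrays stood out in several Trav probe sets at once. WT 2 was the highest of all 10 arrays in 9 of 16 Trav probe sets, against 12.4% of all probe sets, and the highest WT array in 12. Fntb KO 2 was the highest Fntb KO array in 9 of 16, and the highest of all 10 arrays in 3, against 14.5% of all probe sets. For counts within a group, no share over all probe sets was computed, so nothing is read from them. Fntb KO 5 was the lowest of all 10 arrays in 8 of 16, against 15.1% of all probe sets. It was nevertheless the highest of all arrays in 3 of 16, which were 17300173 of Trav12-2 (10.55), 17300181 of Trav9d-3 (9.44) and 17300155 of Trav7-4 (8.74). In the first and second of these, WT 2 was the lowest WT array, at 9.88 and 8.59. For Trav3-4, Fntb KO 5 was the highest Fntb KO array, so it did not follow the Trav12-2 and Trav14d-3-dv8 probe sets in which it was lowest. Of the 8 measured genes listed here as receptor complex genes (CD3 chains, Cd4, Cd5, Cd6, Cd28 and Ptcra), WT 2 was the highest of all arrays in 6 and Fntb KO 5 the lowest in 4. Cd3d, for one, was highest on WT 2 (10.77) and lowest on Fntb KO 5 (10.13), whereas Cd28 was lowest among WT arrays on WT 2 (9.23) and highest among Fntb KO arrays on Fntb KO 5 (9.34). The part of such array differences in the Trav values was not tested.

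**Figure D4:**
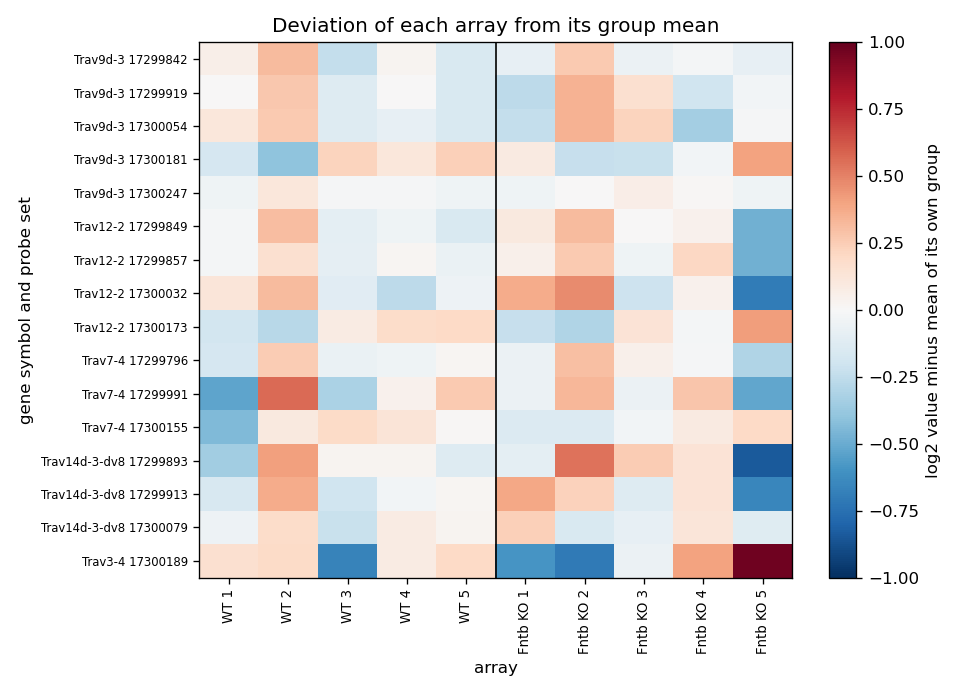
Log2 value of each array (x axis) minus the mean of its own group, by colour, for the 16 distinct Trav probe sets (y axis). WT 2 and Fntb KO 2 are above their group mean in most probe sets, and Fntb KO 5 is below it in most but above it in Trav3-4 (5.46 against a mean of 4.49).

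The list called receptor complex genes here was next compared. It holds the CD3 chains with the co-receptors and accessory receptors Cd4, Cd28, Cd5 and Cd6, which serve a T cell whichever V segment it carries. Ptcra, of thymocytes, is also on it. None of the 8 measured genes of that list passed in limma's fit, where 0.774% of all probe sets passed as lower and 0.306% as higher. At an unadjusted p under 0.05 stood 0 of the 8, against 9.33% of all probe sets. With so few genes these counts lie near those shares, so nothing is read from them. The median difference was -0.09. Cd3e, a signalling chain of the CD3 complex, was 11.06 ± 0.12 in WT against 10.90 ± 0.14 in Fntb KO (SD, n = 5 each), and the difference was -0.16 with a 95% interval of -0.36 to 0.04. Cd3g differed by -0.12 (-0.34 to 0.10) and Cd3d by -0.06 (-0.31 to 0.19). The co-receptor Cd4 differed by -0.07 (-0.26 to 0.11), the costimulatory receptor Cd28 by -0.14 (-0.34 to 0.06), the inhibitory co-receptor Cd5 by -0.11 (-0.28 to 0.06) and its relative Cd6 by 0.00 (-0.19 to 0.19). Ptcra, the partner of the beta chain in thymocytes, was at 4.72 in WT and differed by -0.07 (-0.34 to 0.19). The listed constant regions Trac, Trbc1 and Trbc2 and the CD3 zeta chain Cd247 had no probe set of their own symbol and are not analysed here.

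Other receptor loci gave 3 probe sets with 1 symbol, and 0 of them passed in limma's fit, also 0 at an unadjusted p under 0.05. Over all probe sets, 0.774% passed as lower, 0.306% passed as higher and 9.33% stood at that unadjusted p. Nothing is read from a count over 3 probe sets. Trbv13-2, a variable segment of the beta chain, read 8.40, 8.51, 8.42, 8.21 and 8.44 in WT and 8.60, 8.53, 7.83, 8.09 and 8.01 in Fntb KO. There 2 Fntb KO arrays lay above all WT arrays and 3 lay below them, and the difference was -0.18 (95% interval -0.48 to 0.12, adjusted p = 0.781). The gamma chain segments Trgv5 and Trgv6 stayed below the guide of 4.19, at 3.52 and 3.18 in WT, and differed by 0.06 and 0.14.

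**Figure D5:**
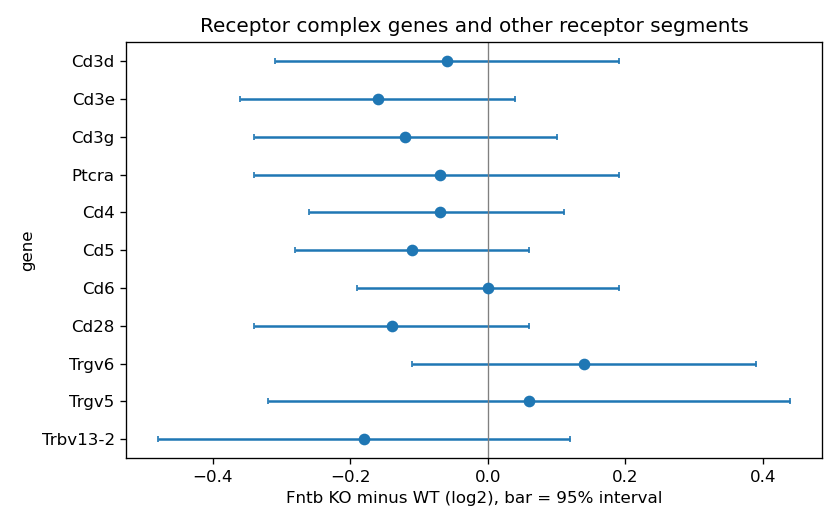
Difference between Fntb KO and WT (log2, x axis) with its 95% interval from the fit over all probe sets (bars) for 8 genes listed as receptor complex genes (CD3 chains, Cd4, Cd5, Cd6, Cd28 and Ptcra) and 3 segments of other receptor loci (y axis). Every interval includes 0, and the differences lie between -0.18 and 0.14.

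Genes of V(D)J recombination, which acts in developing lymphocytes, gave 0 passing members of 12. The shares over all probe sets were 0.774% lower and 0.306% higher, so nothing is read from that count. At an unadjusted p under 0.05 stood 1 of the 12, against 9.33% of all probe sets. That 1 was Dntt, the polymerase that adds nucleotides at the joints, at 3.72 ± 0.10 in WT against 4.07 ± 0.26 in Fntb KO (SD, n = 5 each), and the difference was 0.35 (adjusted p = 0.277) at a level under the guide in both groups. The DNA polymerase Poll differed by 0.30 (adjusted p = 0.612). Of the list for invariant, mucosal and gamma-delta T cells only 3 genes had a probe set of their own symbol and 0 passed. The largest differences were in Zbtb16, the factor of invariant NKT cells, at 3.74 in WT and 3.92 in Fntb KO, and in Sox13, at 5.00 and 5.10.

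Markers of cell types were read beside these results. At an unadjusted p under 0.05 stood 1 of 9 T cell, 4 of 9 Treg, 4 of 11 B and plasma cell, 2 of 11 CD8 T and NK cell and 1 of 14 myeloid markers, against 9.33% of all probe sets tested. The mean log2 level of 9 T cell markers ran from 10.06 to 10.26 over WT arrays and from 9.81 to 10.18 over Fntb KO arrays, and 0 passed. Their largest difference was in the receptor kinase Zap70 at -0.36 (adjusted p = 0.297), which was lowest on Fntb KO 5 (7.57). Of 9 Treg markers, at 9.23 to 9.38 in WT and 9.02 to 9.16 in Fntb KO, 1 fell, the integrin chain Itgae (-1.47, adjusted p = 0.000167). Of 11 B and plasma cell markers, at 4.71 to 4.84 and 4.63 to 4.83, 1 fell, the immunoglobulin heavy chain Ighm (-0.53, adjusted p = 0.0276). Of 11 CD8 T and NK cell markers, at 4.07 to 4.32 and 4.10 to 4.21, 1 fell, the granule gene Nkg7 (-0.79, adjusted p = 0.0133), named after its value was seen, and the largest difference was in the protease Gzmb (-0.83, adjusted p = 0.143). Myeloid markers, at 3.99 to 4.09 and 3.91 to 4.46, had 0 passing of 14, with S100a8 at 1.05 (adjusted p = 0.325). Median differences were -0.07 for T cell and -0.14 for Treg markers. They were 0.04 for B and plasma cell, 0.11 for CD8 T and NK cell and 0.01 for myeloid markers. Differences below 0 were found in 8 of 9 T cell and 7 of 9 Treg markers, against 47.3% of all probe sets. The same held for 5 of 11 B and plasma cell, 4 of 11 CD8 T and NK cell and 6 of 14 myeloid markers. Of the CD8 T and NK cell markers 8 of 11 and of the myeloid markers 8 of 14 lay under 4.19 in both groups. The part of other cells in the Trav differences was not tested.

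Profiles most like those of the members were found by the root mean square difference between mean-centred log2 values over the 10 arrays. The centring spans both genotypes, so a member with a wide gap between them is matched to genes that share the gap. Their differences are therefore no separate result. For Trav3-4 they were those of the linker histone H1f5 (0.582), which went from a mean of 5.39 in WT to 3.30 in Fntb KO, and of the myotubularin-family gene Mtmr9 (0.657), from 8.03 to 5.91. For 17299913 of Trav14d-3-dv8 they were the insulin-degrading enzyme Ide (0.219) and the semaphorin receptor Nrp1 (0.245), which differed by -0.76 and -0.90. For 17300032 of Trav12-2 they were Dera (0.199) and the cell cycle phosphatase Cdc25b (0.219), which differed by -0.58 and -0.66. For 17300173, the Trav12-2 probe set with the highest mean, they were Kansl1l (0.0838) and Ces2b (0.0864), which differed by -0.06 and -0.13. For 17300247 of Trav9d-3 they were the Golgi mannosidase Man2a1 (0.0644) and the phosphoinositide phosphatase Inpp5f (0.065), which differed by -0.32 and -0.38. For 17299796 of Trav7-4 they were the translation factor subunit Eif3d (0.0496) and the predicted gene Gm11546 (0.0513), at differences of -0.06 and 0.04. This measure grows with the size of a probe set's own differences, so its values are not compared between members.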

How the data were processed

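Per the submitters' processing notes, the authors' deposited values come from RMA in Affymetrix Expression Console 1.1, which corrects background, quantile-normalizes arrays and summarises probe sets on the log2 scale. The labels and notes state no other setting. Per the labels' protocols, RNA was amplified and biotin-labelled with NuGEN kits. The authors' table and the series matrix were identical (largest difference 0).

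Of 41345 probe sets, GEO's platform annotation gave 1 symbol to 23521 (22180 genes), several to 1820, and left 16004 unnamed here. The 23521 were fitted with limma 3.58.1 (R 4.3.3, lmFit and eBayes, no covariate), and a probe set passed at a Benjamini-Hochberg adjusted p under 0.05. Errors are SDs over arrays or the SE of the difference, and the number of arrays limits the precision. That SE uses the eBayes variance, drawn toward a value shared by all probe sets, and not the probe set's own SDs alone. A listed gene with several probe sets was read from the one with the highest mean.

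The members and lists were chosen with earlier results of these data known. Named genes are the members, Fntb, Foxp3, all receptor complex genes and other receptor segments, the 2 largest differences of each other list, the largest of each marker list, and the 2 profiles nearest each member, of which those of 1 probe set per symbol are printed. The RefSeq genes served for names and neighbours only, because the files name no genome build.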

Additional observations from a re-analysis of the deposited data

Results flagged for a closer look

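Of 58 groups of 5 arrays checked (the 16 Trav probe sets, Fntb, Foxp3, the receptor complex genes and the other receptor segments, in each genotype), 3 held an array far from the others, where chance gives about 1 in 20. Trav3-4 read 6.35 on WT 3 against 7.10 to 7.22 on the other WT arrays. Probe set 17299842 of Trav9d-3 read 7.84 on Fntb KO 2 against 7.50 to 7.56 on the other Fntb KO arrays. Probe set 17300247 of Trav9d-3 read 12.13 on WT 2 against 11.98 to 12.01 on the other WT arrays. Both WT 2 and Fntb KO 2 are among the 3 arrays with the lowest medians. The causes were not tested.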

How the results depend on the processing

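No paired analysis was possible because the labels number no replicates across the genotypes. Of 18 Trav probe sets, 3 passed as lower, but 1 did with every probe set of the file tested. That setting changes both the number of tests adjusted for and the variance shared by all probe sets, which were not told apart. Leaving out each array in turn gave 2 to 3. Over 20 alternatives, no Trav difference moved by as much as its SD pooled over both groups (309 values). The difference ran from -2.76 to -2.04 for Trav3-4, from -1.09 to -0.81 for 17299913 of Trav14d-3-dv8, from -0.37 to -0.31 for 17300247 of Trav9d-3 and from -1.01 to -0.63 for 17300032 of Trav12-2. The call was lost in 1 alternative for 17299913 and in 12 for 17300247, and 17300032, which did not pass with all arrays, passed in 5; the members were chosen on this contrast, so these calls support nothing. The 3 low-median arrays were singled out after earlier results of these data. Counting identical probe sets once was chosen after seeing the data and left 3 passing. In the alternatives run, receptor complex genes and other receptor segments gave 0 passing, Fntb passed in all and Foxp3 in none.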

Other observations

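Transcripts beside and within the Trav locus were read after their values were seen. Dad1, which lies next to the constant region and encodes a subunit of the oligosaccharyltransferase, had a log2 level of 7.60 ± 0.11 in WT against 7.20 ± 0.16 in Fntb KO (SD, n = 5 each). Every one of 5 Fntb KO arrays was at or below 7.42, the lowest WT value, but the difference of -0.40 did not pass in limma's fit (adjusted p = 0.0757). Beyond it, Abhd4 was dim and differed by -0.31 (adjusted p = 0.536), and at the Trav1 end the olfactory receptor Olfr1509 differed by 0.10 (adjusted p = 0.824).

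A probe set listing several genes, a Trav3 copy among them, held the same value on every array as probe set 17299867, which the annotation gives to A430107P09Rik alone. That probe set was 8.34 ± 0.21 in WT against 8.08 ± 0.15 in Fntb KO (SD, n = 5 each), a difference of -0.26 (adjusted p = 0.481), with overlapping groups. It therefore differed far less between the genotypes than the Trav3-4 probe set. The difference between these 2 probe sets' shifts was not tested.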
